A study of Mus musculus with 24 samples.

Results

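miR-378 and miR-378* are the strands cut from 1 microRNA hairpin, whose gene lies in an intron of Ppargc1b. Here they are the assays named mmu-miR-378 and mmu-miR-378*, 2 of the 584 microRNA assays of the study, selected by name. Both stood on the second of 2 PCR cards (card B), miR-378 in 2 wells and miR-378* in 1 well. Both were detected in all 12 animals.

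MicroRNAs of the soleus, a calf muscle used for posture that holds many slow fibres, were measured by TaqMan real-time PCR in male mice aged 12 weeks. MCK-PPARa mice (n = 3) overexpress PPARα and MCK-PPARb mice (n = 3) overexpress PPARβ, each from a muscle-specific transgene named for the muscle creatine kinase promoter. NTGa (n = 3) are non-transgenic littermates of the first line and NTGb (n = 3) of the second, both labelled wild-type. The labels call the replicates biological and do not say how many founder lines were used, and the transgene mRNA was not measured on the cards. In whole muscle, fewer cells of a type and less RNA per cell cannot be told apart.

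Ppargc1b encodes PGC-1β, a coactivator of nuclear receptors that raises mitochondrial and fatty acid oxidation genes. PPARα and PPARβ, both nuclear receptors, activate the uptake and burning of fatty acids. An intronic microRNA is often transcribed with its host gene. Of the hairpin's strands, one (the guide) is mostly kept in Argonaute and the other (the passenger, marked with an asterisk) is mostly degraded. miR-378 is abundant in heart, skeletal muscle and fat and is known to act on genes of mitochondrial energy use. In the RefSeq table of GRCm38.p6, Mir378a lies within the span of Ppargc1b. The table lists 3 further genes of the name, Mir378b on chromosome 11, Mir378c on chromosome 14 and Mir378d on chromosome 10, and their mature sequences share a run of 14 bases. The cards held 0 assays named for these copies, and what the miR-378 assay reads from them was not tested.

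To show what a guide and passenger pair is, the arms of 3 hairpins used below as comparisons are given from RefSeq (GRCm38.p6), 5′ to 3′, with the seed (bases 2 to 8), which pairs with target mRNAs, in capitals. miR-22 was the pair nearest in ratio to miR-378 among those with both assays on card B, miR-29a had the highest guide to passenger ratio and miR-30a had a passenger assay of lower Ct than its guide. The deposited assay names give no arm. By common usage the starred strand is the 5p arm in miR-22 and miR-29a and the 3p arm in miR-30a. Within each hairpin the arms have different seeds.
mmu-miR-22-3p (chr11:75463772-75463793, plus strand): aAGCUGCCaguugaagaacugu
mmu-miR-22-5p (chr11:75463734-75463755, plus strand): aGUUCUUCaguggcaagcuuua
mmu-miR-29a-3p (chr6:31062673-31062694, minus strand): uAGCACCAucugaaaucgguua
mmu-miR-29a-5p (chr6:31062711-31062732, minus strand): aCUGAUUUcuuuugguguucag
mmu-miR-30a-5p (chr1:23272274-23272295, plus strand): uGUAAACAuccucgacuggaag
mmu-miR-30a-3p (chr1:23272315-23272336, plus strand): cUUUCAGUcggauguuugcagc

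The measure was the cycle threshold (Ct), the PCR cycle at which fluorescence crosses a set level, so that a lower Ct means more template. Relative abundance is on a log2 scale, obtained by subtracting an assay's Ct from a reference, the mean Ct of the 59 card B microRNAs detected (Ct under 35) in all animals. A difference of 1 on this scale is a 2-fold difference if template doubles in each cycle. Between 248 and 296 of 584 microRNAs were detected per animal, and the card B reference ran from Ct 28.16 to 29.34. MCK-PPARa replicate 1 stood apart, with a median correlation of 0.943 with the other animals over 208 microRNAs detected throughout, where the others had 0.965 to 0.981. All 7 skeletal muscle microRNAs on the marker list were measured, and 6 of 7 were detected in every animal.

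miR-378 was among the lowest Ct values of the muscle. Its mean Ct of 18.62 was the third lowest of the 208 microRNAs detected throughout and the second lowest on card B, after the muscle microRNA miR-206 (18.43). On card B it came first in 4 animals and second in 8. Ct values of different assays depend on the primers, so this order is not an order of molecule numbers. miR-378* had a mean Ct of 26.67 and came 13th on card B (11th to 15th in single animals), beside miR-101b (26.66) and miR-24-2* (26.31).

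In NTGa, the Ct of miR-378 was 18.56, 18.70 and 18.57 in replicates 1 to 3, and in MCK-PPARa it was 17.97, 18.57 and 18.40. In NTGb it was 18.83, 18.75 and 19.30, and in MCK-PPARb 18.49, 18.59 and 18.69. The lowest Ct was that of MCK-PPARa replicate 1 and the highest that of NTGb replicate 3. The same animals had the lowest and highest reference mean of the card. The wells of miR-378 differed by 0.0107 to 0.117 Ct (median 0.0516), and pairs of wells below Ct 25 on card B by a median of 0.0529.

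The relative abundance of miR-378 was 10.07, 10.19 and 9.96 in the NTGa animals, and 10.19, 10.30 and 10.25 in the MCK-PPARa animals. The NTGb animals stood at 10.25, 9.92 and 10.03, and the MCK-PPARb animals at 10.36, 9.99 and 10.29. The whole series thus lay within a 1.35-fold range. The group means were 10.25 ± 0.0542 (SD, n = 3) in MCK-PPARa, 10.21 ± 0.198 in MCK-PPARb, 10.07 ± 0.118 in NTGa and 10.07 ± 0.168 in NTGb. In this order neighbouring means differed by no more than the larger SD of the pair.

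For miR-378*, the Ct was 26.46, 27.05 and 26.69 in NTGa and 25.78, 26.39 and 26.53 in MCK-PPARa. It was 26.73, 26.99 and 27.50 in NTGb and 26.53, 26.51 and 26.90 in MCK-PPARb. As for miR-378, the extremes were MCK-PPARa replicate 1 and NTGb replicate 3. The relative abundance was 2.18, 1.84 and 1.84 in NTGa, and 2.39, 2.48 and 2.12 in MCK-PPARa. It was 2.36, 1.68 and 1.83 in NTGb, and 2.32, 2.06 and 2.08 in MCK-PPARb. All groups overlapped with their controls, and the animals spanned a 1.74-fold range. The means were 2.33 ± 0.187 (SD, n = 3) in MCK-PPARa, 2.15 ± 0.144 in MCK-PPARb, 1.96 ± 0.355 in NTGb and 1.95 ± 0.193 in NTGa, and neighbours in this order were closer than their spread.

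**Figure D1:**
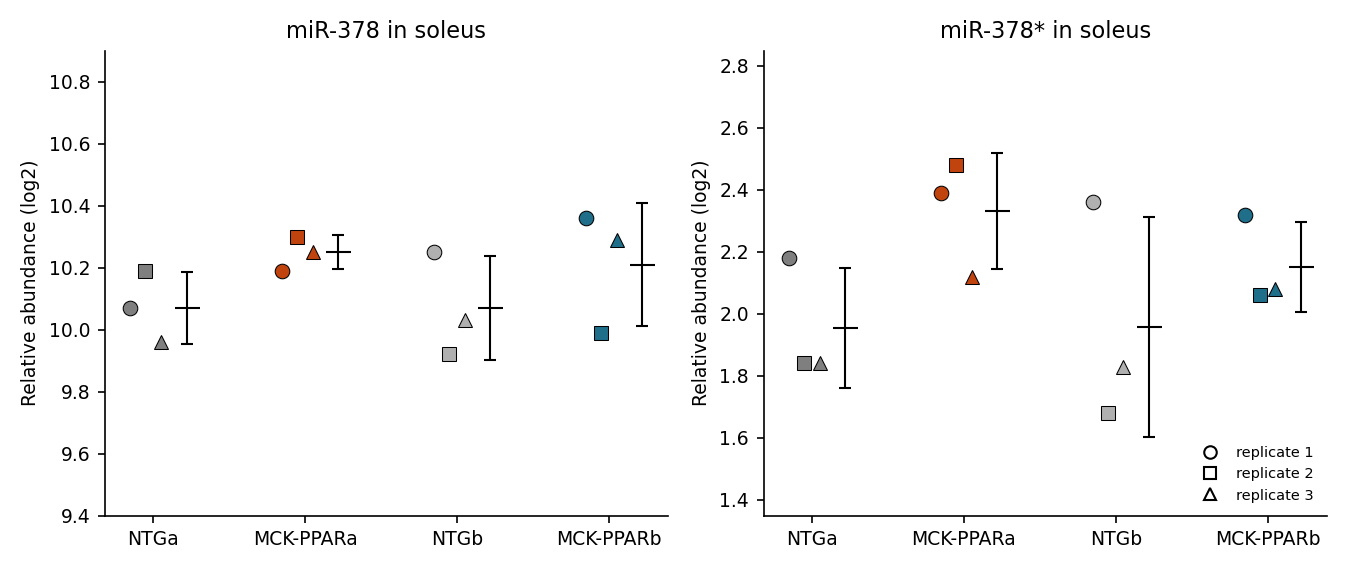
Relative abundance (log2, vertical axis) of miR-378 (left) and miR-378* (right) in the 12 animals, by group; symbols are replicates, and the bar beside them is the mean ± SD of 3 animals. Both panels span the same log2 range; the MCK-PPARa animals reach from 10.19 to 10.30 for miR-378, and for miR-378* each transgenic group overlaps its controls.

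The first question was whether the microRNA of a PGC-1β intron changed when PPARα was raised. miR-378 was 1.13-fold higher in MCK-PPARa than in NTGa, a log2 difference of 0.18 (SE 0.19, 95% interval -0.25 to 0.60), which did not pass (limma adjusted p = 0.745, n = 3 per group). The interval runs from 0.842-fold to 1.52-fold. The lowest MCK-PPARa animal stood 0.0018 above the highest NTGa animal, a gap smaller than the difference between the wells of the assay, so that the groups only just failed to overlap. MCK-PPARa lay wholly above NTGa for 14.9% of the 268 tested microRNAs (40 of 268), so such a separation was not rare. The exact permutation test gave p = 0.1, the smallest that 3 animals against 3 can give.

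miR-378* was 1.30-fold higher in MCK-PPARa, a log2 difference of 0.38 (SE 0.23, 95% interval -0.14 to 0.89), which did not pass either (limma adjusted p = 0.489; exact permutation p = 0.2, n = 3). Of the MCK-PPARa animals, 2 of 3 were above every NTGa animal. In this comparison 6 of 268 microRNAs were called at an adjusted p under 0.05 (2.24%), and neither strand was among them. The difference of miR-378 was smaller in size than that of 196 of the tested microRNAs and that of miR-378* than that of 127. The median over all 268 was 0.12 in MCK-PPARa, and 157 of them were above 0.

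In MCK-PPARb, miR-378 was 1.10-fold higher than in NTGb, with a log2 difference of 0.14 (SE 0.19, 95% interval -0.28 to 0.57, limma adjusted p = 0.872; exact permutation p = 0.4, n = 3). Here 2 of 3 MCK-PPARb animals stood above every NTGb animal and the remaining one, replicate 2, stood below NTGb replicates 1 and 3. MCK-PPARb lay wholly above NTGb for 10.8% of the 268 microRNAs, and neither strand was among these. miR-378* was 1.14-fold higher, at log2 0.19 (SE 0.23, 95% interval -0.32 to 0.71, limma adjusted p = 0.872; exact permutation p = 0.5, n = 3). Limma called 0 of 268 microRNAs (0%) in this comparison, against 23 at an unadjusted p under 0.05. With animals weighted by their fit, both differences were close to 0, at -0.01 for miR-378 and -0.03 for miR-378*. These were the lowest values of the alternatives run, and the highest were 0.53 and 0.58, which did not pass either.

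The effects of the transgenes on either strand were not told apart. The MCK-PPARa effect minus the MCK-PPARb effect was 0.04 for miR-378 (SE 0.27, 95% interval -0.57 to 0.64, limma adjusted p = 0.982) and 0.18 for miR-378* (SE 0.33, 95% interval -0.54 to 0.91, adjusted p = 0.892), where 3 of 268 microRNAs were called (1.12%). The sign of this value for miR-378 turned with U6 snRNA as reference (-0.16) and without scaling (-0.07).

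Averaged over both lines, miR-378 was higher by log2 0.16 (SE 0.14, 95% interval -0.14 to 0.46, limma adjusted p = 0.631) and miR-378* by 0.29 (SE 0.16, 95% interval -0.08 to 0.65, adjusted p = 0.518). An exact permutation within the lines gave p = 0.075 for each, where 400 relabellings allow a p as low as 0.005. This average called 6 of 268 microRNAs (2.24%). The reference matters for its size. With U6 snRNA the averages were 0.45 for miR-378 and 0.58 for miR-378*, while the median of all 268 microRNAs moved from 0.05 to 0.19. Without scaling they were 0.34 and 0.46. None of these passed in limma (lowest adjusted p = 0.21). On the unscaled Ct, the exact permutation within the lines gave p = 0.01 for miR-378 (mean Ct difference -0.34) and p = 0.03 for miR-378* (-0.46), below the 0.075 of the scaled values. The unscaled values also hold the shift of the card B reference itself. Scaling to it took the averages from 0.34 and 0.46 to 0.16 and 0.29.

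The control groups were close for both strands. NTGa minus NTGb was 0.00 for miR-378 (SE 0.19, 95% interval -0.42 to 0.43, limma adjusted p = 0.998) and 0.00 for miR-378* (SE 0.23, 95% interval -0.52 to 0.51), where 5 of 268 microRNAs were called (1.87%). On the scaled measure the control groups overlapped for both strands, and NTGa lay wholly above NTGb for 9.7% of the microRNAs. On the unscaled Ct they did not overlap for miR-378, at 18.56 to 18.70 in NTGa and 18.75 to 19.30 in NTGb (difference -0.35; exact permutation p = 0.1, n = 3), and overlapped for miR-378* (-0.34, exact p = 0.4). The unscaled Ct of miR-378 in MCK-PPARb and NTGb did not overlap either (-0.37, exact permutation p = 0.1). How many of all microRNAs separated in this way on the unscaled Ct was not counted, so these separations are not given as particular to miR-378. On the scaled measure both pairs of groups overlapped for miR-378. With U6 snRNA as reference, the median of all microRNAs in NTGa against NTGb was 0.49. The values were then 0.58 for miR-378 and 0.57 for miR-378*, and did not pass (limma adjusted p = 0.101 and 0.193).

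**Figure D2:**
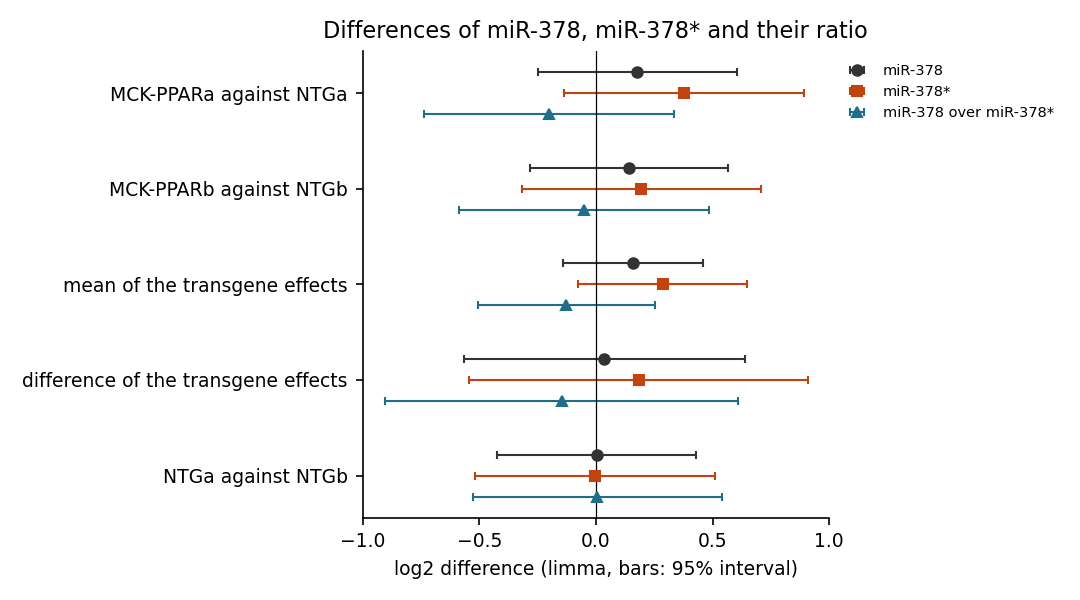
Differences on the log2 scale (horizontal axis) for miR-378, miR-378* and their ratio in 5 comparisons; points are limma estimates over 12 animals and bars their 95% intervals. All 15 intervals include 0; the estimate farthest from it is that of miR-378* in MCK-PPARa, 0.38.

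The ratio of guide to passenger was taken per animal as the Ct of miR-378* minus the Ct of miR-378. Both assays are on card B, so the reference cancels. This Ct difference was 7.89, 8.35 and 8.12 cycles in NTGa and 7.81, 7.82 and 8.13 in MCK-PPARa. It was 7.90, 8.24 and 8.20 in NTGb and 8.04, 7.93 and 8.21 in MCK-PPARb. miR-378 thus crossed the threshold about 8 cycles earlier in every animal, and the animals differed by at most 0.54 cycles. The groups overlapped in both lines. Assays amplify with their own efficiency, so the 8.05 ± 0.181 cycles (SD, n = 12) are not a count of guide molecules per passenger molecule.

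The group means of the Ct difference were 8.12 ± 0.228 (SD, n = 3) in NTGa, 8.11 ± 0.188 in NTGb, 8.06 ± 0.143 in MCK-PPARb and 7.92 ± 0.184 in MCK-PPARa. MCK-PPARa minus NTGa was -0.20 (SE 0.24, 95% interval -0.74 to 0.34; exact permutation p = 0.3, n = 3), and MCK-PPARb minus NTGb was -0.05 (SE 0.24, 95% interval -0.59 to 0.48; exact permutation p = 0.8). Neither passed (limma adjusted p = 0.566 and 0.993 over 20 pairs). The effects differed by -0.15 (limma adjusted p = 0.967), their average was -0.13 (adjusted p = 0.589; exact permutation p = 0.27) and the control groups differed by 0.01 (adjusted p = 0.985). Limma called 0 of 20 ratios in each of these comparisons (0%), against 0 to 3 at an unadjusted p under 0.05. With the controls of the other line, 6 of 20 ratios were called in MCK-PPARa, and that of miR-378 was not among them.

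**Figure D3:**
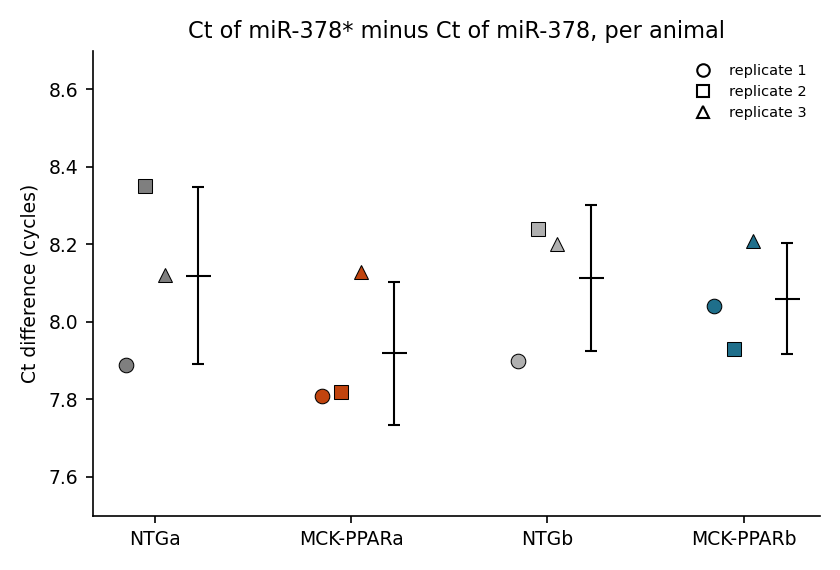
Ct of miR-378* minus Ct of miR-378 (cycles, vertical axis) in each of 12 animals, by group, with the mean ± SD of 3 animals beside them. All values lie between 7.81 and 8.35, and each transgenic group overlaps its controls.

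Of 94 microRNAs with an unstarred and a starred assay, 20 had both detected in all 12 animals. miR-378 had the third highest ratio, at 8.05, after miR-29a (9.23) and miR-26b (8.29) and before miR-186 (6.53), miR-27b (4.75) and miR-27a (4.12). The lowest was that of miR-467a, at -5.38, and 8 of 20 were below 0, among them miR-30a (-2.56). In pairs split over the cards each strand was scaled to its own card's reference, which does not cancel. The sign of such a ratio therefore need not follow the order of the Ct values. For miR-30e the ratio was -0.19, with a mean Ct of 22.24 for the guide and 22.83 for the passenger. The ratio of miR-378 varied least between the animals of a group, with a within-group SD of 0.188, where the other 19 had 0.219 (miR-30a) to 1.28 (miR-467a). miR-378 was, however, 1 of only 3 pairs with both assays on one card. The others on card B were miR-22 (ratio 3.26, SD 0.338) and miR-877 (-0.52, SD 0.932). miR-378 also had the lowest guide Ct of the 20, and the part of card and Ct in its small SD was not tested.

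**Figure D4:**
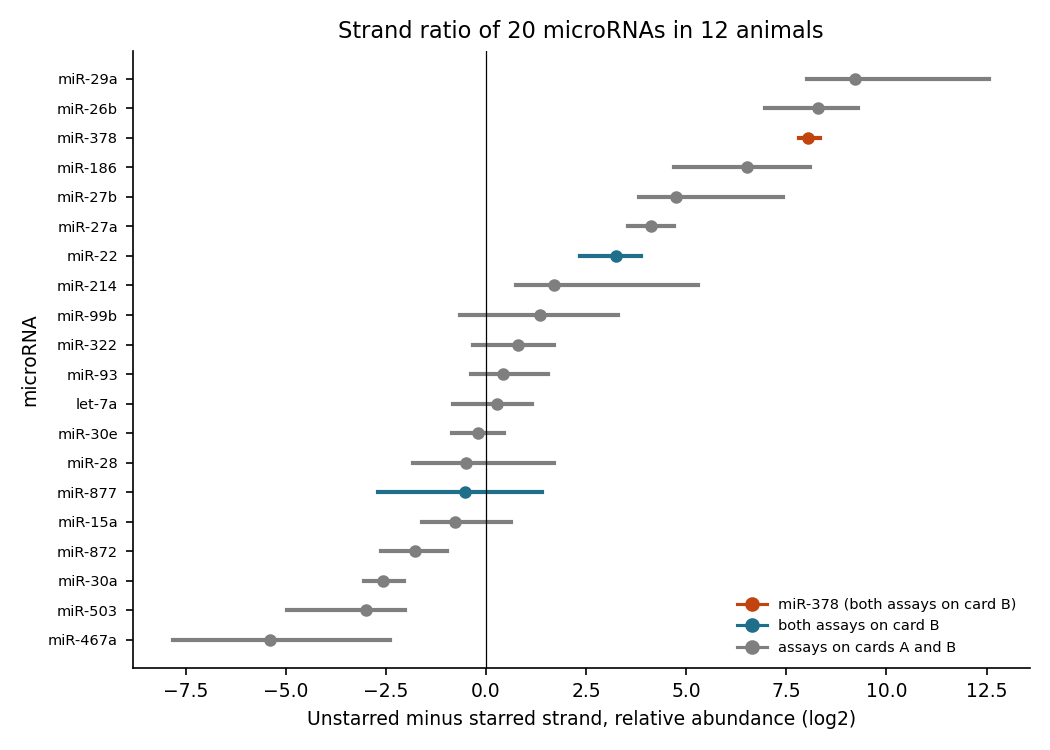
Unstarred minus starred strand on the log2 relative abundance scale (horizontal axis) for the 20 microRNAs with both strands detected in 12 animals; points are means and lines reach from the lowest to the highest animal. miR-378 is the third from the top, at 8.05, with a line from 7.81 to 8.35.

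The level of miR-378 was also among the steadiest. Its within-group SD of 0.145 was the smallest of the 59 microRNAs detected throughout on card B, where the next was 0.153 and the median 0.461, and 5 of 208 on both cards had a smaller one. That of miR-378* was 0.234, with 9 of 59 and 37 of 208 smaller. Pairs of wells of one assay on card B differed by a median of 0.0529 Ct below Ct 25, 0.192 from Ct 25 to 30 and 0.614 from Ct 30 to 35, so assays of lower Ct were read more closely. Limma draws each SD towards that of all assays, which widens the intervals of miR-378 given above beyond its own spread.

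**Figure D5:**
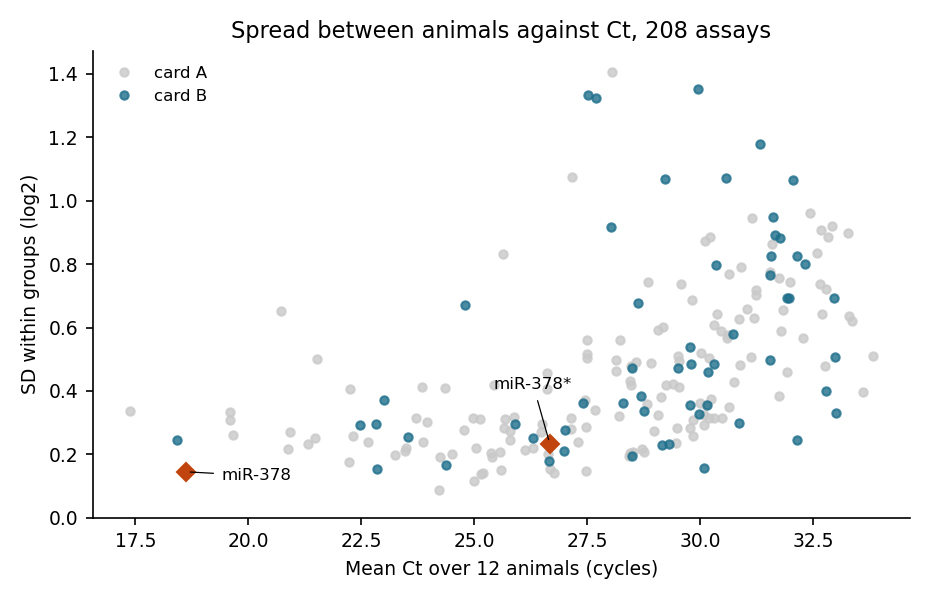
Within-group SD of relative abundance (log2, vertical axis) against mean Ct (cycles, horizontal axis) for the 208 microRNAs detected in all 12 animals, by card. miR-378 (SD 0.145) is the lowest point of card B, and miR-378* (SD 0.234) lies below the median of 0.399.

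The strands varied together over the animals. Relative abundances had a Pearson r of 0.726 (permutation p = 0.00981) and a Spearman rho of 0.748 (p = 0.00648) over 12 animals, adjusted p = 0.0147 and 0.00972 over the 3 relations computed. Without the 2 animals farthest from the median of miR-378, NTGa replicate 3 and NTGb replicate 2, r was 0.542. The farthest 2 were chosen by miR-378 alone, here and in the relations below. After subtraction of the group means, r was 0.593 (permutation p = 0.0428) and rho 0.552 (permutation p = 0.0668), and r was 0.459 without the farthest 2. Subtraction ties the values of a group to each other, and shuffling them over all animals does not allow for this. The p-values after subtraction are therefore likely too small, and they do not decide whether the strands varied together within groups. Unscaled Ct values gave r = 0.927 (permutation p = 3.7e-04), or 0.669 without the farthest 2. The strands share the RNA, the card and the reference mean, whose part in these values was not tested.

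Among 207 other microRNAs detected throughout, the one most like miR-378 over the 12 animals was its own passenger strand (Pearson r = 0.73). let-7d (0.70), miR-301a (0.68), rno-miR-345-3p (0.64) and miR-185 (0.60) followed, all on card A. The median r was 0.06 and the lowest -0.71. For miR-378*, the order was let-7d (0.75), miR-451 (0.75), miR-185 (0.73), miR-378 (0.73) and miR-24-2* (0.71), with a median of 0.07. These are the highest of 207 values each and are given as a description.

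Of these, miR-451 is made in red cells, and it was the only red cell marker of 2 listed that the cards held. Its relative abundance ran from -1.61 to -0.98 in NTGa and from -1.09 to -0.06 in MCK-PPARa, and from -2.04 to -1.31 in NTGb and from -1.27 to -0.90 in MCK-PPARb. The groups of the first line overlapped. In the second line MCK-PPARb lay wholly above NTGb, as it did for 10.8% of all 268 tested microRNAs. The differences were log2 0.58 in MCK-PPARa (SE 0.31, limma adjusted p = 0.42) and 0.53 in MCK-PPARb (SE 0.31, adjusted p = 0.579), and neither passed. The means of miR-378* were also above those of the controls in these groups, and the part of blood in them was not tested. let-7d, a member of the let-7 family, stood at 0.99 ± 0.108 (SD, n = 3) in NTGa, 1.40 ± 0.141 in MCK-PPARa, 1.06 ± 0.159 in NTGb and 1.49 ± 0.147 in MCK-PPARb. Its differences, 0.40 and 0.44, did not pass (limma adjusted p = 0.334 and 0.532). miR-185 had the largest differences of the assays alike to either strand, 1.34 in MCK-PPARa and 1.28 in MCK-PPARb (SE 0.39 each), which did not pass either (limma adjusted p = 0.134 and 0.490).

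Fat tissue, which also expresses Ppargc1b, was checked through miR-193b and miR-365, the 2 of 3 listed fat markers on the cards. Their summed level was 3.13 to 3.30 in NTGa, 3.21 to 3.29 in MCK-PPARa, 3.45 to 4.86 in NTGb and 4.28 to 4.81 in MCK-PPARb. The markers did not move alike between the control groups. NTGa minus NTGb was -1.14 for miR-193b (SE 0.33, limma adjusted p = 0.115) and -0.18 for miR-365 (SE 0.29, adjusted p = 0.766), so the gap between the lines in the sum lay mostly in miR-193b, and neither passed. Of the 7 tested members of the wider fat list, 4 were positive in this comparison, with a median of 0.18. The part of fat in the levels of miR-378 was not tested. Summed endothelial markers reached from 8.34 to 9.43 over all animals, leukocyte markers (4 of 5 detected throughout) from 4.39 to 5.16 and smooth muscle and fibroblast markers from 5 to 5.52, with the groups of each line overlapping in all 3. Of the liver marker and the 2 neuronal markers, 0 were detected in all animals, though each was detected in some. The neuronal miR-9 was tested and stood at 1.62 in MCK-PPARa (SE 0.58, limma adjusted p = 0.212) and -0.03 in MCK-PPARb (SE 0.58, adjusted p = 0.982), and neither passed.

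Of 27 listed strands of microRNAs in other protein-coding host genes, some of them both arms of 1 hairpin, 22 were tested. In MCK-PPARa 1 of 22 was called lower and 0 higher, where 2.24% of all 268 were called (3 higher and 3 lower). The median log2 difference was -0.06 against 0.12 over all 268, and 9 of 22 were positive. The one called was miR-499, of the slow myosin gene Myh7b, at -3.66 (SE 0.30, limma adjusted p = 3.94e-05). miR-486 of Ank1 was at 0.68 and miR-33* of Srebf2, the gene of a sterol-sensing transcription factor, at 1.37. miR-26b of the Ctdsp genes was at -0.69, and none of these passed. In MCK-PPARb 0 of 22 were called, as were 0 of all 268, with a median of -0.04 against 0.02. The 4 of lowest p were miR-28 of Lpp (0.94), miR-335-5p of Mest (-0.73), miR-208b of Myh7 (1.32) and miR-140 of Wwp2 (0.48), which did not pass.

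Of 23 listed microRNAs reported to act on mitochondrial, fatty acid or PGC-1 genes, 18 were tested and 0 were called in either line, against 2.24% of all 268 in MCK-PPARa and 0% in MCK-PPARb, so these counts do not set the list apart. Their median was 0.17 in MCK-PPARa, where all tested microRNAs had 0.12, and 0.02 in MCK-PPARb, where all had 0.02. miR-34a (1.04, limma adjusted p = 0.217) and miR-195 (-0.67, adjusted p = 0.256) were among those of lowest p in MCK-PPARa, and miR-29b (-0.68, adjusted p = 0.516) and miR-27a (0.42, adjusted p = 0.532) in MCK-PPARb. Of 9 listed fat and brown fat microRNAs, 7 were tested and 0 were called, against the same 2.24% and 0% of all 268, with medians of 0.07 and 0.10.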

How the data were processed

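Per the file headers and values, the authors deposited 1 Ct per well, not normalized, with empty cells where no Ct was called. Per the labels' protocols, RNAzol B RNA was run as TaqMan assays for 40 cycles. How the Ct threshold was set is not given in the sources used here. The 24 deposited samples were 12 animals on 2 cards of 384 wells, and 0 data columns were left unmatched. The wells of an assay were averaged; where only 1 was called, the empty one counted as Ct 40. Values were scaled to the mean Ct of the microRNAs detected (Ct under 35) in every animal (149 for card A and 59 for card B), and undetected ones were set to -6.56 (card A) or -5.66 (card B).

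The 268 assays detected in a whole group (3 of 3 animals) were fitted with limma 3.58.1 in R 4.3.3 (lmFit, eBayes) as 4 group means with 8 residual degrees of freedom and no replicate block. P-values are two-sided and adjusted by Benjamini-Hochberg over all assays tested, with a threshold of 0.05. The ratios of 20 guide and passenger pairs were fitted in the same way. Exact permutation tests over animals were two-sided, and relations between strands used 100000 permutations. The fit was tested on simulated data.

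The members and lists were chosen with earlier results of these data known. Named were the members, their neighbours in Ct and in strand ratio, the 5 assays most correlated with each over the animals, and up to 4 members of lowest p per list. miR-22, miR-877, miR-30a and miR-30e were named after their values were seen. Alternatives covered the reference, the detection limit, the filter, the samples and controls in the fit, weights, the block and each animal left out. The reference without miR-378 and miR-378* was added after seeing the data.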

Additional observations from a re-analysis of the deposited data

How the results depend on the processing

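Over 15 results (2 strands and their ratio in 5 comparisons), 366 alternative values were computed. None passed (0 with a limma adjusted p under 0.05; lowest 0.101), and 27 turned sign. Of these turns, 7 for miR-378, 7 for miR-378* and 2 for the ratio were between the control groups. The main values there were 0.00, 0.00 and 0.01, so their sign says little.

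In MCK-PPARa against NTGa the sign held in all alternatives run: 0.11 to 0.37 for miR-378, 0.30 to 0.57 for miR-378* and -0.31 to -0.09 for the ratio. It also held for the average of both lines, at 0.06 to 0.45 for miR-378, 0.18 to 0.58 for miR-378* and -0.18 to -0.07 for the ratio. In MCK-PPARb against NTGb the values ran from -0.01 to 0.53 for miR-378 and from -0.03 to 0.58 for miR-378*. For the strands the sign turned only with animal weights (-0.01 for miR-378, -0.03 for miR-378*). Leaving out 1 animal gave 0.06 to 0.25 for miR-378, 0.06 to 0.40 for miR-378* and -0.16 to 0.01 for the ratio, whose sign turned without NTGb replicate 2 or MCK-PPARb replicate 2. The difference of the transgene effects turned with U6 snRNA (-0.16 for miR-378, -0.01 for miR-378*) and, for miR-378, without scaling (-0.07); without 1 animal it was -0.08 to 0.12 for miR-378 and -0.01 to 0.32 for miR-378*. For NTGa against NTGb, alternatives ran from -0.13 to 0.58 for miR-378 and from -0.21 to 0.57 for miR-378*. The sign of miR-378 turned with the median reference (-0.13), a limit of Ct 32 (-0.05), no limit (-0.05) and animal weights (-0.09). That of miR-378* turned with endogenous controls (0.35), U6 snRNA (0.57) and no scaling (0.34). With U6 snRNA miR-378 stood at 0.58 as well. Without 1 animal the values were -0.07 to 0.10 for miR-378, -0.14 to 0.20 for miR-378* and -0.11 to 0.12 for the ratio. The cause of these turns was not tested.

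Whether the replicate numbers pair the animals was not tested. Deviations of same-numbered transgenic and control animals correlated at -0.19, 0.14 and -0.13 in the first line and at 0.37, -0.02 and 0.22 in the second. With the replicate block, miR-378 was at 0.18 and 0.14, miR-378* at 0.38 and 0.19 and the ratio at -0.20 and -0.05 in MCK-PPARa and MCK-PPARb, and no call changed for either strand. The number of microRNAs called ran from 4 to 12 in MCK-PPARa (main 6; 12 without MCK-PPARb replicate 1), 0 to 1 in MCK-PPARb (main 0), 1 to 7 for the difference (main 3), 0 to 29 between the controls (main 5; 29 with U6 snRNA) and 1 to 9 for the average (main 6). Of the ratios, 6 of 20 were called in MCK-PPARa with the other line's controls (main 0), and 1 of 34 there, in MCK-PPARb and between the controls with pairs detected in a group. With 3 animals per group, the 95% intervals of miR-378 leave room for changes of up to 1.52-fold in MCK-PPARa.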
